A study of Mus musculus with 2 samples.

Results

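The renin-angiotensin components described here are 9 genes, chosen by symbol as the precursor, enzymes, receptors and receptor-binding proteins of angiotensin signalling, out of 45777 genes in the read count table. They were followed in 2 RNA-seq libraries of whole mouse kidney. The conditional knockout (CKO) library came from mice with Inmt, a methyltransferase gene, deleted conditionally in the proximal tubule, where most filtered salt and water is taken back up, and the other library came from control mice. Both were from untreated animals on standard chow, and the labels do not give the strain, sex, age, Cre line, control genotype or number of animals behind either library. The comparison asks how the level of each component differed in kidneys with Inmt deleted in the proximal tubule. With 1 library per group there was no replicate check and no test, so every difference below is between 2 libraries, and every interval covers counting error only.

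Angiotensinogen is cleaved by renin to angiotensin I, which angiotensin-converting enzyme shortens to the vasoconstrictor angiotensin II. Angiotensin II acts on type 1 receptors in vessels, glomeruli and tubules, where it raises sodium reabsorption, and aminopeptidases then trim it further. The kidney releases renin from juxtaglomerular cells of the afferent arteriole, and the proximal tubule carries the peptidases on its brush border.

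The CKO library held 38136616 counted reads and the control library 33618076. Levels are given as CPM, the reads of a gene divided by the library size in Mreads after TMM scaling (trimmed mean of M-values, from edgeR). Log2 ratios set the CKO level over the control level after 0.5 CPM was added to each, so they are too small for genes with few reads. Mitochondrial genes took 10.7% of CKO reads and 14.2% of control reads. A gene with at least 1 CPM in either library was called expressed, which held for 15129 genes. Inmt itself had 5283 reads in the CKO and 17678 in the control library, or 124 CPM against 587 CPM, so that 21.1% of the control level remained. The scaling matters for small differences. The median log2 ratio of all expressed genes was 0.01 with TMM, 0.32 with total counts, 0.28 with the authors' FPKM and 0.40 with the authors' TPM, and differences near 0 are given with that shift in view. A 2-fold limit on that log2 scale was passed upwards in the CKO library by 10.3% of all expressed genes and downwards by 1.66%, and the higher genes made up 86.1% of those past 2-fold with TMM, 96.5% with TPM and 75.9% with a minimum of 10 CPM.

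Of the 9 components, 8 were expressed and Agtr1b was not. Agt, the angiotensinogen gene, was the 1 component at least 2-fold higher in the CKO library, against 10.3% of all expressed genes, and none (0) was at least 2-fold lower, against 1.66%. Ace was the lowest, at 1.93-fold lower and just inside the 2-fold limit. The remaining 6 expressed components had log2 ratios between -0.43 and 0.09. The median over the 8 expressed components was -0.27, against 0.01 for all expressed genes. All 9 together took 31455 reads in the CKO and 31159 in the control library, a summed level of 739 CPM against 1035 CPM.

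**Figure D1:**
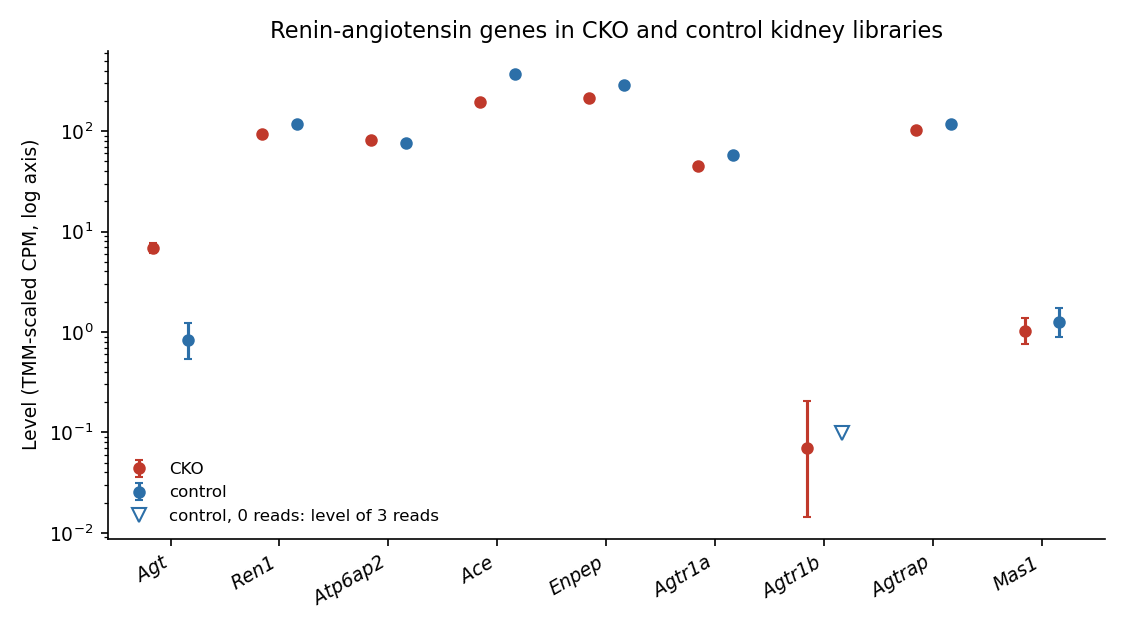
Level of each component in TMM-scaled CPM (log axis) in the CKO and control libraries, 1 library each, with exact Poisson 95% intervals that cover counting error only. Agt is at 6.93 CPM in the CKO and 0.830 CPM in the control library, Ace is at 193 and 372 CPM, and the open triangle marks the level of 3 reads for Agtr1b, which had 0 control reads.

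The upstream sequences of Agt, Ren1 and Ace are shown because these genes encode the precursor and both enzymes that make angiotensin II, and because Agt and Ace were the components farthest from a ratio of 1 while Ren1 was not. They are the 250 bases before the annotated start of each gene in RefSeq (GRCm38.p6), 5′ to 3′ on the gene's own strand. Capitals mark the letters TATAAA of a TATA box, GGGCGG of a GC box and TTCNNNGAA of a STAT palindrome, each searched on both strands. For Agt the window is chr8:124569707-124569956 on the minus strand and for Ren1 it is chr1:133350424-133350673 on the plus strand. Ace has windows for its upstream start, chr11:105967698-105967947, and for a start inside the gene, chr11:105974939-105975188, both on the plus strand.
Agt: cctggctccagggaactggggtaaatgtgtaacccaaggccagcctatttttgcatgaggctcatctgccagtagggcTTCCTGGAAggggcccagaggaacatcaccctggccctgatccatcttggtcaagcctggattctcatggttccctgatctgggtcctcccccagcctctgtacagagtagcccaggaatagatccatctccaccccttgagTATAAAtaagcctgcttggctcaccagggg
Ren1: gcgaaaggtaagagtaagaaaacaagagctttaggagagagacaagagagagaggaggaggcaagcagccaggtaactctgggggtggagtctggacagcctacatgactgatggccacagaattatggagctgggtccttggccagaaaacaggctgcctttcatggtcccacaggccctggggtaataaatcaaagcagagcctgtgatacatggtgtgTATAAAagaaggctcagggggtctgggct
Ace, upstream start: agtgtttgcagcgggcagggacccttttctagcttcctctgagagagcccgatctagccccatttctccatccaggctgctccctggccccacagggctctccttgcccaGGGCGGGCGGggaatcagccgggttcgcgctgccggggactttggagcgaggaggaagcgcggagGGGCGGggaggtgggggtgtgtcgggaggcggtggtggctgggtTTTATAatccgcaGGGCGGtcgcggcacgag
Ace, internal start: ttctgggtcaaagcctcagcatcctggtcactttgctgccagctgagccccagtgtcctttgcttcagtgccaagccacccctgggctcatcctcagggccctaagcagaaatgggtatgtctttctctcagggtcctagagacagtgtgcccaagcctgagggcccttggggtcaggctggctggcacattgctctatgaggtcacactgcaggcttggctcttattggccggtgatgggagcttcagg

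The table of promoters matched 8 of the 9 genes, all but Agtr1a, with 9 windows in all. TATAAA was found in 5 of those 9 windows and in 12.4% of 32841 promoters of the same length. In Agt, Ren1 and Agtr1b it lay on the gene's strand and began 30, 29 and 31 bases before the start. In the upstream window of Ace it lay on the opposite strand, among 4 copies of GGGCGG, of which 2 overlap. GGGCGG was in 2 of the 9 windows and in 32.7% of all promoters. The STAT palindrome was in the windows of Agt and Enpep and in 7.02% of all promoters, and in Agt it began 172 bases before the start. TGACGTCA, the cAMP response element, was in none (0) of the 9 windows and in 1.55% of all promoters. The androgen and glucocorticoid receptor half-site AGAACA was in 1 of the 9, that of Atp6ap2, and in 16.1% of all promoters, and CCAAT was in 5 of the 9 and in 33.9% of all. These matches describe letters and do not show binding.

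Agt encodes angiotensinogen, which the liver secretes into blood and the proximal tubule makes locally. It had 295 reads in the CKO library and 25 in the control library. Its CKO level was 6.93 CPM, with an exact Poisson interval of 6.16 to 7.77. Its control level was 0.830 CPM, with an interval of 0.537 to 1.23 that did not overlap the first. The CKO level was 8.34 times the control level (95% counting interval 5.54 to 13.1), with a log2 ratio of 2.48 on the scale of CPM + 0.5 that ranked 116 from the highest among 15129 expressed genes. Its control level was below 1 CPM, so Agt passed the minimum only through the CKO library.

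The Agt difference kept its side of the 2-fold limit under each of the 9 scaling and pseudocount settings, with log2 ratios from 1.66 with a pseudocount of 2 CPM to 2.92 with 0.1 CPM. Agt (NCBI gene 11606) has 5 exons on the minus strand of chromosome 8, from 124556587 to 124569706 in GRCm38, the build of all positions here, and no other GENCODE gene overlaps it. The nearest expressed neighbours were Cog2, 4.58 kb away with a log2 ratio of -0.18, and 2310022B05Rik, 66.1 kb away with 0.36. Of the liver markers, Alb, the albumin gene and the defining hepatocyte transcript, had 72 reads in the CKO and 63 in the control library, and Ttr, the transthyretin gene and the most abundant of that list, had 584 against 1482. Others of the 6 were higher in the CKO library, with 215 reads against 77 for Serpina1a, an alpha-1 antitrypsin gene with close copies that could share reads, and 20 against 0 for the fibrinogen gene Fgb. Within each library, Agt had 4.10 reads per Alb read in the CKO and 0.397 in the control library, a 10.3-fold difference (exact interval 5.90 to 18.3) that involves no scaling between libraries. The size of that difference depended on the marker, being 4.23-fold against Serpina1a (exact interval 2.56 to 7.15) and 29.9-fold against Ttr (19.6 to 47.5). Alb, Serpina1a and Fgb lie outside the rule for named genes and were chosen after their values were seen, and the part of liver-type transcripts in the Agt level was not tested.

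Ren1 encodes renin, the aspartyl protease that starts the cascade and is the marker of juxtaglomerular cells. It had 4000 reads in the CKO and 3580 in the control library. Its level was 93.9 CPM (91.1 to 96.9) against 119 CPM (115 to 123), 1.27-fold lower in the CKO library (1.21 to 1.32) with TMM. That difference depended on the scaling, since the log2 ratio was -0.34 with TMM, -0.02 with total counts and 0.08 with the authors' TPM. Relative to the median of all genes it was at -0.34 with total counts and at -0.32 with TPM. Ren1 (NCBI gene 19701) lies on chromosome 1 at 133350674 to 133360320, plus strand. Some mouse strains carry a closely related renin gene, Ren2, which was not analysed here, and reads of the 2 could be hard to tell apart.

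Of 19 expressed genes on the list of renin cell genes and renin regulators, none (0) was at least 2-fold higher or lower, and their median log2 ratio was 0.07. Gnas, the G protein subunit that raises cAMP in renin cells and the most abundant of them, had 383 CPM against 442 CPM. The juxtaglomerular genes Akr1b7, an aldo-keto reductase, and Gja5, the connexin 40 gene, were outside the rule for named genes and were chosen after their values were seen. They had 143 reads against 88 and 168 against 106, with log2 ratios of 0.17 and 0.14. Ren1 had 28.0 reads per Akr1b7 read in the CKO and 40.7 in the control library, a ratio of 0.688 (exact interval 0.519 to 0.907). Akr1b7 and Gja5 each share exon bases with a gene on the opposite strand, as do Adora1 and Ptger4. Calcrl, Pde3b and Ebf1, also named after their values were seen, were the highest of the list, with log2 ratios of 0.81, 0.80 and 0.79. With total counts, 3 of the 19 genes of this list were at least 2-fold higher, where 15.7% of all expressed genes were.

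The next list holds genes of signals from the macula densa, the tubular cells that sense salt and instruct renin cells. It includes receptor genes, such as Adora1 and Ptger4, beside genes that make signals. Of 8 expressed genes on that list, 4 were at least 2-fold higher in the CKO library and none (0) was at least 2-fold lower, with a median of 0.80. Over all expressed genes 10.3% were at least 2-fold higher, and the count was not tested against that share. Adora1, the gene of the adenosine A1 receptor through which adenosine inhibits renin release, had 467 reads against 90, a CKO level 3.67 times the control (2.92 to 4.65). Ptger4, a prostaglandin E2 receptor gene, had 483 reads against 96 (3.56 times, 2.85 to 4.48). Ptgs2, the inducible cyclooxygenase gene, had 43 reads against 6 (5.07 times, 2.15 to 14.6), and Pappa2, which encodes a protease of IGF binding proteins, had 176 against 53 (2.35 times, 1.72 to 3.26). Ptgs2, at 0.199 CPM in the control library, passed the minimum of 1 CPM only through the CKO library. Slc12a2, a sodium, potassium and chloride cotransporter gene and the most abundant of the list, had 37.0 CPM against 58.5 CPM. Nos1, the neuronal nitric oxide synthase gene of macula densa cells, was named after its values were seen and had 96 reads against 63, a log2 ratio of 0.09. With 0.5 added to the authors' TPM or FPKM values, 2 of the 8 were at least 2-fold higher. Ptgs2 and Pappa2 were under the limit there because their values are small. Before 0.5 was added they had 0.507 against 0.0647 TPM and 0.980 against 0.308 TPM. Ptger4 and Ptgs2 are also made by macrophages, whose 9 markers summed to 327 CPM in the CKO and 73.6 CPM in the control library, and the part of those cells in these differences was not tested.

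Atp6ap2 encodes the prorenin receptor, which is also an accessory subunit of the vacuolar proton pump (V-ATPase). It had 3489 reads in the CKO and 2309 in the control library, or 81.9 CPM (79.2 to 84.7) against 76.7 CPM (73.6 to 79.9). It was 1.07 times as high in the CKO library (1.01 to 1.13), a log2 ratio of 0.09 with TMM, 0.41 with total counts and 0.51 with TPM, each within 0.13 of the median of all genes. The V-ATPase list, 18 other subunits, had none (0) past 2-fold and a median of -0.22, with 15 of 18 below 0. Its most abundant gene, Atp6v1a, which encodes a catalytic subunit, had 463 CPM against 594 CPM. Relative to Atp6ap1, the other accessory subunit gene, Atp6ap2 had 0.493 reads per read in the CKO and 0.426 in the control library, a ratio of 1.16 (1.09 to 1.23).

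Ace encodes angiotensin-converting enzyme, a zinc peptidase of endothelium and of the proximal tubule brush border that makes angiotensin II and degrades bradykinin. It had 8233 reads in the CKO and 11209 in the control library. Its level was 193 CPM (189 to 198) against 372 CPM (365 to 379), 1.93-fold lower in the CKO library (1.87 to 1.98). Ace ranked 299 from the lowest of 15129 expressed genes, and its log2 ratio of -0.94 was below 0 under all 9 scaling and pseudocount settings, from -0.96 with DESeq2 size factors to -0.52 with TPM. At a limit of 1.5-fold with TMM, Ace was the 1 component called lower, where 6.85% of all expressed genes were. Agt was the 1 called higher, where 19.3% were. This limit was run with TMM only, and the Ace log2 ratio with TPM, -0.52, is short of 1.5-fold. Relative to the median of all genes, Ace was at -0.92 with TPM.

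Ace (NCBI gene 11421) lies on chromosome 11 at 105967948 to 105989964, plus strand, and its expressed neighbours Cyb561 and Dcaf7 had log2 ratios of 0.08 and 0.23. In GENCODE M21 the long transcript, Ace-201, has 25 exons, and Ace-202, which starts 7263 bp further in, has 14. The shorter form is the one known from testis, and gene counts add both together. An antisense gene model, Gm11651, shares 295 exon bases with Ace and had 0 reads in both libraries.

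Marker lists are set beside Ace here. Of 14 proximal tubule markers, 3 had less than 0.5 of their control level in the CKO library and none (0) was past 2-fold upwards, with a median of -0.57 and a summed level of 17008 CPM against 27654 CPM. With total counts, TPM or FPKM none (0) of the 14 was past 2-fold, and the medians were -0.25, -0.14 and -0.25. The medians of all expressed genes were 0.32, 0.40 and 0.28 there, against 0.01 with TMM. The shares of all expressed genes at least 2-fold lower were 0.67%, 0.58% and 0.60% there, against 1.66% with TMM. With TMM the log2 ratios of the 14 ran from -1.18 to 0.32, with 12 below 0 and 2 above. A ratio of Ace to 1 marker therefore depends on the marker. Slc34a1, the phosphate transporter gene and the most abundant of them, was 1.90-fold lower, and Ace had 0.0574 reads per Slc34a1 read in the CKO and 0.0581 in the control library, a ratio of 0.988 (0.959 to 1.02). Against Pecam1, an endothelial marker, the same ratio was 0.529 (0.497 to 0.563), and none (0) of 10 endothelial markers was past 2-fold, with a median of 0.02 and a sum of 698 CPM against 715 CPM. In the S3 segment list, which marks the last stretch of the proximal tubule, 5 of 8 genes were lower by 2-fold or more, with a median of -1.04, against 2 with total counts, 1 with TPM and 2 with FPKM. All 9 androgen-dependent kidney genes were at least 2-fold lower with TMM, where 1.66% of all expressed genes were, and 8 were with total counts, TPM or FPKM. Their sum was 7259 CPM against 23427 CPM. These marker lists were chosen with earlier results of these data known, so their counts are description only and were not tested. In bulk tissue, fewer cells of a type and less RNA per cell cannot be told apart, and the part of tubule content or androgen state in the Ace level was not tested.

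Enpep encodes aminopeptidase A, the brush border enzyme that removes the first residue of angiotensin II to give angiotensin III. It had 9125 reads in the CKO and 8721 in the control library, or 214 CPM (209.9 to 219) against 289.6 CPM (284 to 296). It was 1.35-fold lower in the CKO library (1.31 to 1.39), with a log2 ratio of -0.43 with TMM that was also below 0 with total counts, at -0.12, and with TPM, at -0.01. Relative to the median of all genes it was at -0.43 with total counts and at -0.41 with TPM. Enpep (NCBI gene 13809) lies on chromosome 3 at 129269177 to 129332749, minus strand. Ace was therefore farther below its control level than Enpep, with 0.902 Ace reads per Enpep read in the CKO and 1.29 in the control library, a ratio of 0.702 (0.674 to 0.731). Per Slc34a1 read, Enpep was 1.41 times as high in the CKO library (1.37 to 1.45).

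The other peptidases and receptors of angiotensin peptides differed less than Agt and Ace. Of 12 expressed genes on that list none (0) was past 2-fold in either direction, and the median was -0.11. Klk1, the tissue kallikrein gene and the most abundant, had 740 CPM against 1096 CPM, and it belongs to a family of close copies that could share reads. Mme and Anpep lie outside the rule for named genes and were chosen after their values were seen, because they act on the same peptides. Mme, the neprilysin gene, had 179 CPM against 125 CPM, a log2 ratio of 0.52. Anpep, the aminopeptidase N gene, had 175 CPM against 270 CPM, a log2 ratio of -0.63.

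Within each library the balance of these enzymes differed. Ace had 1.08 reads per Mme read in the CKO and 2.98 in the control library, a ratio of 0.361 (0.344 to 0.379). On the per-length TPM scale Ace was at 1.29 times the Mme level in the CKO and at 3.58 times in the control library, so Ace was above Mme in both. Against Anpep the Ace read ratio was 0.803 (0.770 to 0.838). These ratios involve 2 genes of 1 library each and do not change with the scaling. The pairs, with Pecam1, Pdgfrb, Atp6ap1, Alb and the other partner genes in them, were chosen after the values were seen.

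**Figure D2:**
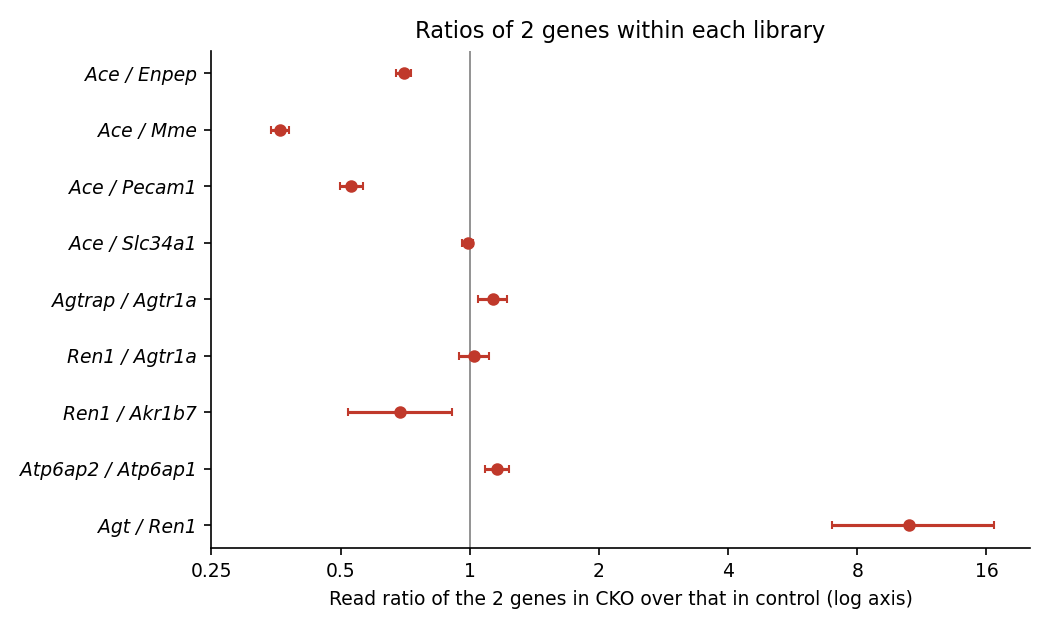
Read ratio of 2 genes within a library, CKO over control (log axis), with 95% counting intervals and a line at 1, at which both libraries have the same ratio. Agt over Ren1 is at 10.6, Ace over Slc34a1 at 0.988, and Ace over Enpep, Mme and Pecam1 lies below 1.

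Agtr1a encodes the main type 1 angiotensin receptor of mouse kidney, found on vessels, mesangium and tubules. It had 1905 reads in the CKO and 1745 in the control library, or 44.7 CPM (42.8 to 46.8) against 58.0 CPM (55.3 to 60.7). It was 1.30-fold lower in the CKO library (1.21 to 1.38) with TMM. Its log2 ratio was -0.37 with TMM, -0.05 with total counts and 0.05 with TPM, so its side of 0 depended on the scaling. Relative to the median of all genes it was at -0.37 with total counts and at -0.35 with TPM. Agtr1a (NCBI gene 11607) lies on chromosome 13 at 30336356 to 30382867, plus strand. Agtr1a and Ren1 kept nearly the same proportion, with 2.10 Ren1 reads per Agtr1a read in the CKO and 2.05 in the control library, a ratio of 1.02 (0.946 to 1.11). Against Pdgfrb, a mesangial and pericyte marker, the Agtr1a ratio was 0.574 (0.528 to 0.625). Against Slc34a1, the proximal tubule marker, it was 1.47 (1.38 to 1.57), so the ratio depended on the marker. The 10 vascular smooth muscle and pericyte markers had 2 genes above 2-fold, against 10.3% of all expressed genes. Their median was 0.62 and their sum 409.9 CPM against 262 CPM. With total counts 4 of them were above 2-fold, with FPKM 3 and with TPM 5.

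Agtr1b, the gene of the other type 1 receptor, had 3 reads in the CKO library and 0 in the control library, where the exact Poisson upper limit is 0.123 CPM. Both counts were at or under the floor of 3 reads, so no ratio is given. The transcripts of the 2 receptor genes share few long words. Of 2098 stretches of 50 bases in the Agtr1b transcript, 33 (1.57%) also occur in that of Agtr1a, and none (0) of 75 bases does. Agtr2, the type 2 receptor gene, had 0 reads in both libraries.

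Agtrap encodes a protein that binds the type 1 receptor and promotes its internalisation. It had 4361 reads in the CKO and 3532 in the control library, or 102 CPM (99.4 to 106) against 117 CPM (113 to 121). Its log2 ratio of -0.19 with TMM was 0.12 with total counts and 0.22 with TPM, so its side of 0 too depended on the scaling. Relative to the median of all genes it was at -0.20 with total counts and at -0.18 with TPM. Agtrap had 2.29 reads per Agtr1a read in the CKO and 2.02 in the control library, a ratio of 1.13 (1.05 to 1.22). Agtrap (NCBI gene 11610) lies on chromosome 4 at 148077061 to 148088064, minus strand.

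Mas1 encodes the receptor of angiotensin 1-7. It had 44 reads in the CKO and 38 in the control library, or 1.03 CPM (0.751 to 1.39) against 1.26 CPM (0.893 to 1.73). The intervals overlapped, the CKO level was 0.819 times the control (0.518 to 1.30), and no difference was detectable at this depth. Mas1 (NCBI gene 17171) lies on chromosome 17 at 12838841 to 12868150, minus strand, and overlaps Airn on the opposite strand, with no shared exon bases.

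**Figure D3:**
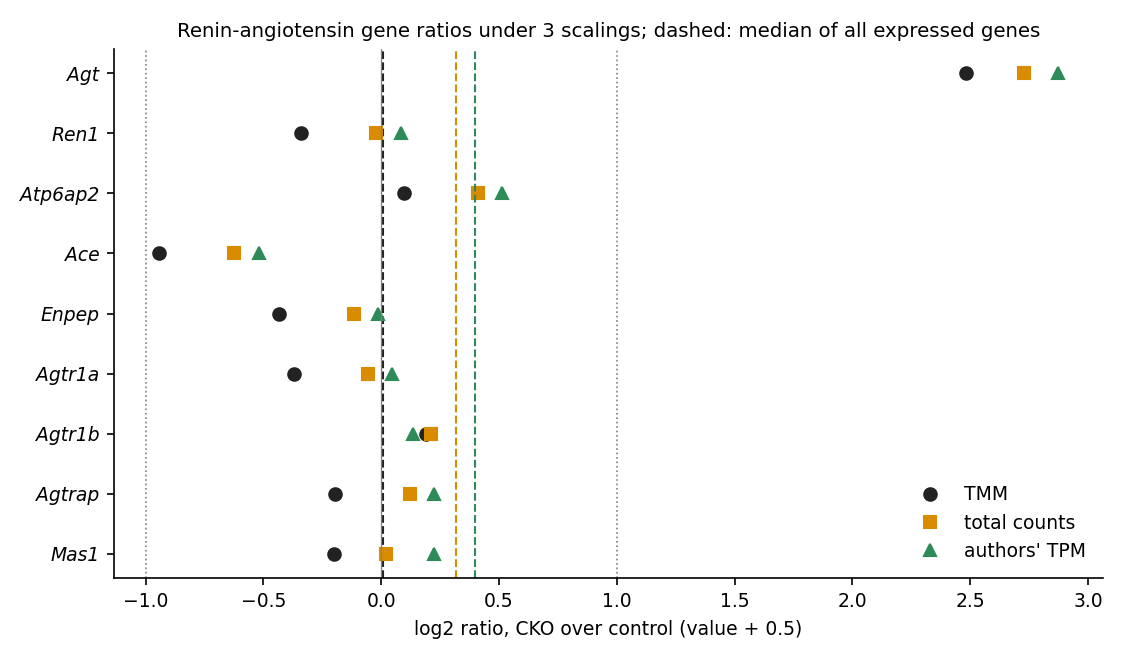
Log2 ratio of CKO over control for each component (values + 0.5) with TMM-scaled CPM, with total counts and with the authors' TPM, with dashed lines at the median of all expressed genes under each (0.01, 0.32 and 0.40) and dotted lines at 2-fold. Agt is beyond 2-fold and Ace below 0 under each of the 3, while Ren1, Agtr1a, Agtrap and Mas1 fall on either side of 0.

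Across genes, levels were compared per length with the authors' TPM. Ren1 was the highest component in both libraries, at 149 TPM in the CKO and 141 TPM in the control library. In the CKO library it was followed by Enpep at 115, Ace at 87.7, Atp6ap2 at 78.0, Agtrap at 57.3, Agtr1a at 44.1, Agt at 8.46, Mas1 at 0.831 and Agtr1b at 0.0493 TPM. In the control library Ace, at 126 TPM, came before Enpep, at 116 TPM, and Atp6ap2, Agtrap and Agtr1a followed at 54.4, 49.0 and 42.6 TPM. The places of Ace and Enpep were thus exchanged between the libraries. In the control library Agt and Mas1, at 0.725 and 0.640 TPM, did not differ beyond counting error, with a ratio of 1.13 (0.655 to 1.93), whereas in the CKO library Agt was at 10.2 times the Mas1 level (7.40 to 14.3). Other neighbours in either order differed beyond counting error, by 1.09-fold or more. The transcript length implied by the FPKM values and the counts differed between libraries for Mas1, at 3186 against 3761 bases, and for Agt, at 2096 against 2184, which enters their FPKM and TPM values.

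**Figure D4:**
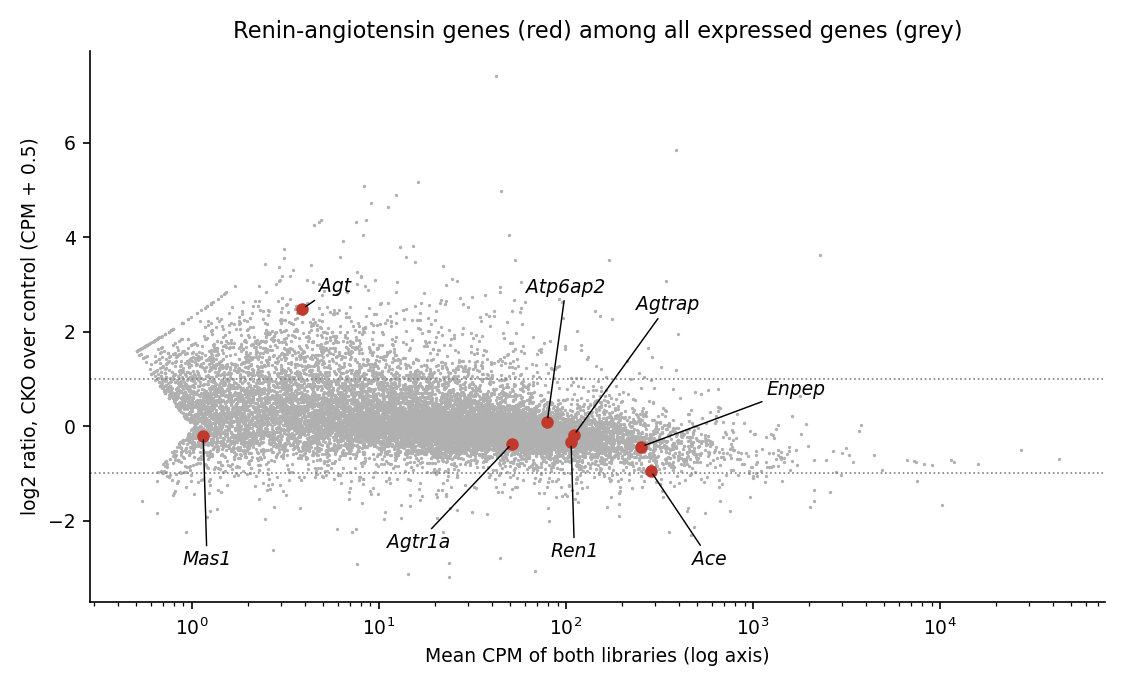
Log2 ratio of CKO over control (CPM + 0.5) against the mean CPM of both libraries (log axis) for 15129 expressed genes in grey and the 8 expressed components in red, with dotted lines at 2-fold. Agt is the 1 component beyond a dotted line, at 2.48, and Ace lies just above the lower one, at -0.94.

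Genes that act after the receptor were mostly within 2-fold. Of 19 expressed genes of angiotensin receptor signalling, 1 was at least 2-fold higher and none (0) lower, with a median of 0.06. With total counts or FPKM 2 were at least 2-fold higher, and with TPM 4. The higher one with TMM was Rgs4, a regulator that shortens signalling of the receptor's G proteins, with 262 reads against 40, a CKO level 4.63 times the control (3.31 to 6.63). Rhoa, a small GTPase of smooth muscle contraction and the most abundant of the list, had 262 CPM against 299 CPM. Among 13 genes of the mineralocorticoid receptor and its targets, which respond to the aldosterone that angiotensin II releases, 1 was at least 2-fold higher and none (0) lower, with a median of 0.25, and with total counts, TPM or FPKM 2 were higher. The gene past the limit with TMM was Per1, a clock gene that aldosterone induces, with 57.2 CPM against 22.1 CPM, or 2.59 times the control (2.37 to 2.82). The adrenal enzymes of aldosterone and corticosterone synthesis, Cyp11b2 and Cyp11b1, had 0 reads in both libraries.

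The kinin and natriuretic peptide list had 10 expressed genes, of which 4 were at least 2-fold higher in the CKO library and none (0) lower, with a median of 0.30. Edn1, which encodes the vasoconstrictor endothelin 1, had 296 reads against 28, a CKO level 7.48 times the control (5.07 to 11.4). Bdkrb2, the bradykinin B2 receptor gene, had 134 against 30 reads (3.16 times, 2.11 to 4.86). Kng1, a kininogen gene, had 185 against 49 reads (2.67 times, 1.94 to 3.74), and it has a close copy, Kng2, the most abundant of the list at 163 CPM against 119 CPM, so the split of reads is uncertain. Edn1 and Bdkrb2, both under 1 CPM in the control library, passed the minimum of 1 CPM only through the CKO library. Ednra, the endothelin A receptor gene, had 267 against 86 reads, with a log2 ratio of 1.01. It was under the limit with DESeq2 size factors and with FPKM after 0.5 was added, where 3 of the 10 passed. Before that addition Ednra had 1.69 against 0.618 FPKM. Over all expressed genes 1552 of 15129, or 10.3%, were at least 2-fold higher. The lists were chosen with earlier results of these data known, and their counts were not tested against that share.

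**Figure D5:**
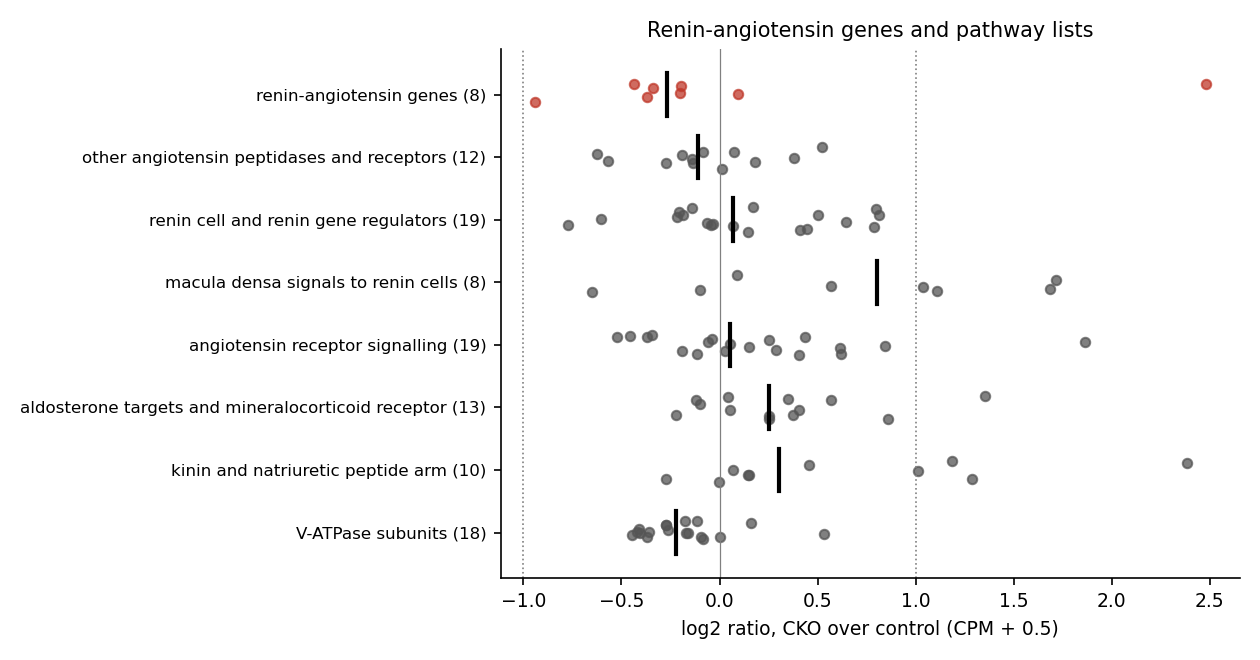
Log2 ratio of CKO over control (CPM + 0.5) of each expressed gene in the renin-angiotensin group and in 7 pathway lists, with the number of genes in parentheses, a black bar at each median and dotted lines at 2-fold. Medians run from -0.27 for the renin-angiotensin genes to 0.80 for macula densa signals, and no gene on these lists is at least 2-fold lower.

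Cell type markers give the setting of these values. All 9 tubular injury markers were above 2-fold in the CKO library, with a median of 3.55 and a sum of 5321 CPM against 452 CPM. Of these, Krt19, Krt20, Lcn2 and Sox9 were under 1 CPM in the control library and passed the minimum only through the CKO library. So were 8 of 9 macrophage markers, with a median of 2.39, and 6 of 7 fibroblast markers, with a median of 1.71. Podocyte markers had none (0) of 6 past 2-fold and a median of 0.07, distal tubule and collecting duct markers had 1 of 9 above it, or 2 with TPM, and a median of 0.21. The mesangial list, which holds Ren1 and Agtr1a themselves, had 1 of 7 above it and a median of 0.41. Of 7 mast cell markers, 1 was expressed, Kit, which other kidney cells also make, and Cpa3 and Mcpt4 had 0 reads in both libraries. Liver markers had 3 of 6 and adrenal cortex markers 1 of 6 expressed, with sums of 21.2 against 54.1 CPM and 1.86 against 0.897 CPM. Of the 3 expressed liver markers 1, Ttr, was at least 2-fold lower, and with total counts, TPM or FPKM 1 was also at least 2-fold higher. The part of these cell types in the renin-angiotensin values was not tested.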

How the data were processed

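RNA was measured in 2 whole-kidney libraries, 1 CKO and 1 control, made with a stranded mRNA kit per the labels' protocols. Tools listed in the submitters' processing notes, with no role or order, are FastQC, edgeR, DESeq2, HTSeq, Cufflinks 2.2.1 and STAR 2.7.3a, with mm10 as the build. The strand setting of the counting is not given in the sources used here. The deposited read counts are whole numbers per NCBI gene, and the deposited FPKM and TPM values, named so per the file headers, correct for length and depth. The authors' normalized signal table equals the counts divided by 42.6 for the CKO and 30.1 for the control library.

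Counts were scaled here by TMM (edgeR 4.0.16, R 4.3.3), with effective sizes of 42.6 and 30.1 Mreads for the CKO and control libraries. Single levels have exact Poisson 95% intervals, and ratios have intervals converted from the exact binomial (Clopper-Pearson) interval of CKO reads among both libraries' reads. Ratios of 2 genes have exact conditional intervals where a count is under 100 and log odds intervals otherwise. All cover counting error only, since reads without molecular identifiers are not independent molecules. The steps were run in Python 3.11.15. They were tested on simulated Poisson counts with equal numbers of genes made 4-fold higher and 4-fold lower. That test does not check the scaling of libraries in which higher genes prevail, as here.

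The components and the 21 gene lists were chosen with earlier results of these data known. Of 223 list symbols, 222 were matched. The rule for named genes takes all components, Inmt, and from each list up to 4 genes past 2-fold and the most abundant one; for marker lists fewer are printed. Genes named outside it, such as the partners in ratios of 2 genes, were chosen after their values were seen. Some genes of these lists are not reported here. Positions and promoters are from RefSeq GRCm38.p6, and overlaps from GENCODE M21. The alternatives were other scalings, pseudocounts, minimums and limits, and means.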

Additional observations from a re-analysis of the deposited data

How the results depend on the processing

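Agt stayed at least 2-fold higher and no component was at least 2-fold lower under the scaling and pseudocount alternatives. With a minimum of 10 CPM, 6 components were left and 0 were at least 2-fold higher, since Agt lies under that minimum; without Agt, an alternative added after seeing the data, the count was also 0. At a 1.5-fold limit, run with TMM only, 1 was lower, Ace. The median log2 ratio of the components, -0.27, was -0.0006 with total counts, -0.11 with totals that leave out mitochondrial genes and the 50 highest genes, 0.15 with TPM, 0.0414 with FPKM, 0.012 as a mean in place of a median, and -0.35 with the 10 CPM minimum. Relative to the same value over all expressed genes it lay below 0 under each of these. Without Ace, whose exons overlap another gene model, also added after seeing the data, it was -0.20. Depth limits Mas1 and Agtr1b most. No paired analysis was possible because each group has 1 library.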

Other observations

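Among the expressed genes next to the renin-angiotensin components on the chromosome, Mboat1, which lies 89.7 kb from Agtr1a, was the 1 at least 2-fold higher in the CKO library, with 333 reads against 92 and a log2 ratio of 1.23. Elovl6, a fatty acid elongase gene 199.6 kb from Enpep, had 1243 reads against 464, a log2 ratio of 0.90. Agtr1a and Enpep themselves had log2 ratios of -0.37 and -0.43. These neighbours were named after their values were seen.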
